A study of Arabidopsis thaliana with 6 samples.

Results

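The NF-YB family of *Arabidopsis thaliana* encodes the B subunits of the CCAAT-binding factor NF-Y. Its 10 classical members were taken by locus identifier: *NF-YB1* (AT2G38880), *NF-YB2* (AT5G47640), *NF-YB3* (AT4G14540), *NF-YB4* (AT1G09030), *NF-YB5* (AT2G47810), *LEC1-LIKE* (*L1L* or *NF-YB6*, AT5G47670), *NF-YB7* (AT2G13570), *NF-YB8* (AT2G37060), *LEAFY COTYLEDON1* (*LEC1* or *NF-YB9*, AT1G21970) and *NF-YB10* (AT3G53340). Membership followed the family and not an expression value, but earlier results of these data were known when the family was chosen. Of the 10 genes, 9 had a read in at least 1 library, among 24509 transcripts with reads in any library, and 7 were abundant enough to be tested among 18241 genes.

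The mRNAs were measured by RNA-Seq in whole embryos dissected from seeds 8 d after pollination. One group was homozygous for the *wrinkled1-1* allele (*atwri1-1*, 3 biological replicates) and the other was wild type (WT, 3 biological replicates). Both were in the Col-0 ecotype, were grown in the same long-day chamber conditions and carried no transgene or other treatment named in the labels. Each replicate was a pool of 25 to 30 embryos, so a value is an average over embryos and over the cell types within them. The comparison asks which mRNAs differ in an embryo whose WRI1, the AP2-type activator of fatty acid synthesis genes, is mutated.

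NF-Y is a trimer. An NF-YB and an NF-YC subunit pair through their histone folds, and the pair then takes up an NF-YA subunit, which reads the CCAAT sequence. LEC1 and L1L form a separate branch of the family that acts in embryos, where LEC1 with the B3-domain regulators LEC2, FUS3 and ABI3 governs seed maturation, and LEC1-type complexes with the bZIP factor bZIP67 switch on storage genes. The other NF-YB proteins are expressed more broadly, and NF-YB2 and NF-YB3 are known from the photoperiodic control of flowering.

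The sequence that separates the embryo branch from the rest of the family lies in the histone fold. Over 264 aligned coding bases (88 codons, no gaps), *LEC1* and *L1L* were 77.3% identical to each other, whereas *L1L* was between 61.4% and 68.9% identical to the other 8 members and *LEC1* between 62.1% and 67.4%. At 15 of the 264 positions, *LEC1* and *L1L* shared a base that no other member had. Only 1 of the 88 codons encoded aspartate in both *LEC1* (GAC, codon 85) and *L1L* (GAT, codon 84) and lysine (AAA or AAG) in every other member. Aspartate at this place is the residue known to be needed for LEC1 activity in embryos. The stretch around that codon is given below for 5 members, 63 bases each and within a single exon, as the coding strand of the RefSeq annotation of TAIR10.1. The first capital opens a histidine codon in *LEC1* and *L1L* and an asparagine codon in the other members, and the second capital is the first base of the aspartate or lysine codon. The stretches lie at chr5:19315490-19315552 for *L1L* (plus strand), chr1:7728182-7728244 for *LEC1* (minus strand), chr4:8344771-8344833 for *NF-YB3* (plus strand), chr2:15576471-15576533 for *NF-YB8* (plus strand) and chr2:16238793-16238855 for *NF-YB1* (plus strand).
L1L: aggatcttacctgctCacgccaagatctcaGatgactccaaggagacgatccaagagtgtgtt
LEC1: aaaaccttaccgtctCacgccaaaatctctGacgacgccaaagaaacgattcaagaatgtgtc
NF-YB3: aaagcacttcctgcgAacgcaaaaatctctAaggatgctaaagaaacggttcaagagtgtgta
NF-YB8: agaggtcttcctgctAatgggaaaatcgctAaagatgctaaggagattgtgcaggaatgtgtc
NF-YB1: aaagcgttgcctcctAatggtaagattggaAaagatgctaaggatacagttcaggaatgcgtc

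The libraries held between 8510887 and 18933870 reads counted on transcripts. WT replicate 1 stood apart from WT replicates 2 and 3 (chi-square per degree of freedom 94.3 and 83.3, against 7.05 between those), and in *atwri1-1* replicate 1 the row that names no transcript held 86.6% of the counts, against 39.6% to 45.0% in the other libraries. Levels are given as CPM, the counts of a gene scaled to the library's reads on tested genes and adjusted by TMM. *WRI1* itself was at 1256, 1100 and 1042 in replicates 1 to 3 of the group labelled *atwri1-1* and at 186, 148 and 166 in WT. The level of the mutated gene's mRNA was thus higher, not lower, in the group labelled *atwri1-1*. Its log2 fold change was 2.76 (adjusted p = 2.3e-04 in edgeR's quasi-likelihood test). Every direction below follows the labels, and the libraries labelled *atwri1-1* are called mutant-labelled. The 6 embryo markers include oil body and storage protein genes. They summed to between 4049 and 7409 CPM in the mutant-labelled libraries and between 3995 and 6161 CPM in WT. None was called by edgeR, and 2 had an unadjusted p under 0.05 (*OLE1* and *ABI3*, both higher). The sum joined genes of opposite direction. The log2 fold change was above 0 for *OLE1* (0.70), *ABI3* (0.31) and *FUS3* (0.18). It was below 0 for *CRA1* (-0.58), *CRC* (-1.87) and *SESA3* (-0.51). *OLE1* did not overlap between the groups, and *CRA1* ranged from 249 to 2270 CPM within the mutant-labelled group. Of 6 seed coat markers none of the 5 tested was called (0 at an unadjusted p under 0.05, 321 to 468 CPM in sum against 342 to 386). Of 6 endosperm markers 1 was called lower (*SUC5*, log2 fold change -2.24) and 1 higher (*AGL62*, 1.89). *ZOU* (1.31) was also higher at an unadjusted p under 0.05 but was not called. The endosperm markers summed to 91.2 to 292 CPM against 220 to 459, with *PHE1* at 0 in 5 libraries. In that sum *EPR1* was at 344 CPM in WT replicate 1, against 41.0 and 80.7 in WT replicates 2 and 3. The part of these cell types in the results below was not tested. In such bulk samples, fewer cells of a type and less RNA per cell cannot be told apart.

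A gene was called when its adjusted p was at most 0.05 in edgeR's quasi-likelihood test (Benjamini-Hochberg adjustment over all 18241 genes) and its log2 fold change lay beyond 1. Among all genes tested, 968 (5.31%) were called lower in the mutant-labelled libraries and 197 (1.08%) higher. With library sizes left unscaled, these counts were 786 and 344, so that 30.4% of calls were higher in place of 16.9%. Without WT replicate 1, 1087 genes were called lower and 364 higher, and without *atwri1-1* replicate 1 these counts were 589 and 95. Of the 7 NF-YB genes tested, 2 were called lower, *L1L* and *NF-YB3*, and none higher, as was also found with DESeq2 and with limma-voom. At an unadjusted p under 0.05, 2 members (*LEC1* and *NF-YB8*) were higher. The median log2 fold change of the 7 was -0.07, against -0.01 over all genes tested. In 3 of the 7 (*L1L*, *NF-YB3* and *NF-YB8*) the 3 values of one group lay wholly outside those of the other, which was so for 35.0% of all genes tested.

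*L1L*, a LEC1-type subunit expressed in developing seeds, had the largest change of the family. Its CPM was 23.2, 14.9 and 30.4 in replicates 1 to 3 of the mutant-labelled group. In WT it was 436, 242 and 254. The lowest WT library thus stood far above the highest mutant-labelled library, and the values came from 254, 302 and 270 reads in the mutant-labelled libraries and 5553, 2734 and 2949 reads in WT. The log2 fold change was -3.77 (standard error, SE, 0.355), a 13.7-fold lower level, with an adjusted p of 0.0013 from edgeR's quasi-likelihood test (Benjamini-Hochberg). Between libraries of the same replicate number the log2 ratio was -4.23, -4.02 and -3.06. The fitted log2 fold change was -3.48 without WT replicate 1 and -3.79 without *atwri1-1* replicate 1, and a call in both fits. Of the 18241 genes tested, 102 had a lower log2 fold change. *L1L* is a gene of 3 exons on chromosome 5 (19314778 to 19316169, plus strand, TAIR10.1).

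*LEC1*, the founding member of the embryo branch, was not called. Its CPM was 84.3, 76.9 and 57.2 in the mutant-labelled libraries and 59.2, 35.1 and 31.1 in WT. The groups overlapped, because WT replicate 1 exceeded replicate 3 of the other group, yet *LEC1* was higher in 3 of 3 pairs of the same replicate number, by 0.51, 1.13 and 0.88 on the log2 scale. The log2 fold change was 0.80 (SE 0.272, adjusted p = 0.118 by the same test). With the replicate number as a block, the adjusted p was 0.0385 and the log2 fold change 0.84, still under the fold minimum, and over the other filters, scalings and tests the adjusted p lay between 0.0437 and 0.130. Without WT replicate 1, the log2 fold change was 1.14 with an adjusted p of 0.0034, which is a call. *LEC1* lies on chromosome 1 (7727577 to 7729649, minus strand) and has 2 exons.

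*NF-YB3*, which acts with CONSTANS and NF-YC subunits in the flowering response to long days, was the other member called. It was at 3.84, 2.37 and 4.06 CPM in the mutant-labelled libraries and at 11, 9.46 and 10.5 CPM in WT, with no overlap. This gave a log2 fold change of -1.61 (SE 0.265, adjusted p = 0.0105), or 3.06-fold lower, and the difference had the same sign in 3 of 3 pairs. *NF-YB3* was also called without WT replicate 1 (-1.58) and without *atwri1-1* replicate 1 (-1.72). *NF-YB2*, which shares that role, was not called. Its CPM was 8.78, 12.7 and 8.23 against 4.48, 11.1 and 7.42 in WT, and the log2 fold change of 0.38 (SE 0.351) had an adjusted p of 0.541. Over the aligned coding bases *NF-YB2* and *NF-YB3* were 80.3% identical.

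*NF-YB8* had low within-group spread. Its 3 mutant-labelled libraries were at 9.79, 10.2 and 9.58 CPM, and the WT libraries at 7.30, 5.75 and 6.64 CPM, so the groups did not overlap. The log2 fold change of 0.58 (SE 0.187, adjusted p = 0.102) did not pass the test. *NF-YB10*, the member most like it in the aligned coding sequence (89.8% identical), was at 11.3, 16.2 and 14.4 CPM against 14.1, 14.2 and 16.0 CPM in WT. Its log2 fold change was -0.07 (SE 0.182, adjusted p = 0.847), and it became 0.10 without scaling of the library sizes.

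*NF-YB1*, known from work on drought tolerance, was at 22.1, 24.5 and 18.4 CPM in the mutant-labelled libraries and at 31.5, 24.0 and 20.6 CPM in WT. The groups overlapped and the log2 fold change was -0.22 (SE 0.20, adjusted p = 0.532). The remaining 3 members were at or near the detection limit. *NF-YB7* had 2, 5 and 1 reads in the mutant-labelled libraries and 1, 5 and 1 in WT. The sums of 8 reads (95% Poisson interval 3.45 to 15.8) and 7 reads (2.81 to 14.4) did not differ detectably at this depth. *NF-YB5* had a single read, in WT replicate 1, and *NF-YB4* had none in any library. A count of 0 allows up to 3 reads, which is between 0.148 and 0.338 CPM across the libraries. These intervals and limits cover counting error only.

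**Figure D1:**
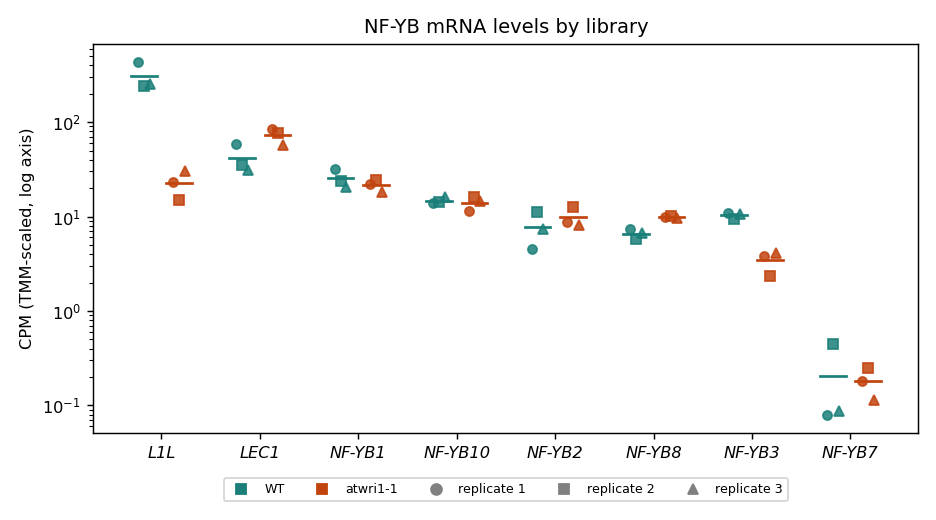
CPM (TMM-scaled, log axis) of the 8 NF-YB genes with more than 1 read, in each WT (teal) and *atwri1-1* (red) library, with symbols for the replicate number and bars at the group means. *L1L* fell from between 242 and 436 CPM to between 14.9 and 30.4 CPM, while *LEC1* overlapped between the groups.

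**Figure D2:**
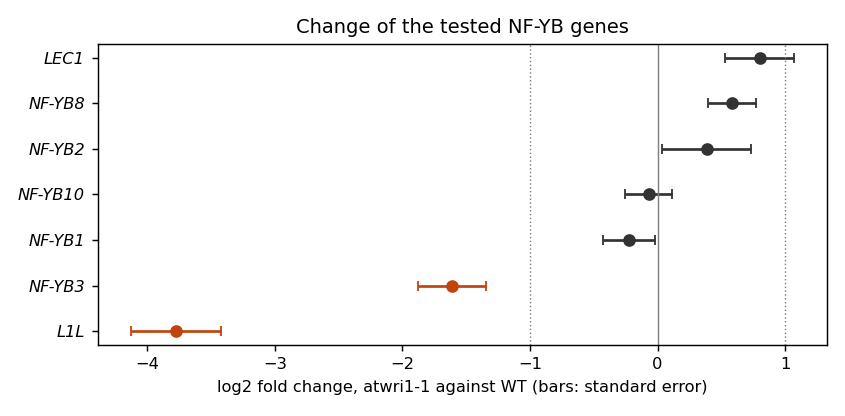
Log2 fold change (horizontal axis, *atwri1-1* against WT) of the 7 NF-YB genes tested, with standard errors as bars and dotted lines at the fold minimum of 1 in either direction. *L1L* (-3.77) and *NF-YB3* (-1.61) were called lower and are drawn in red, and *LEC1* (0.80) was not called.

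The order of the NF-YB mRNAs within the embryo was compared on a scale of CPM per kb of transcript, which allows levels of different genes to be set side by side. In WT, *L1L* was first at 295 ± 103 CPM per kb (SD, n = 3), above *LEC1* at 43.2 ± 15.7 and *NF-YB1* at 27.9 ± 6.13. The values of *LEC1* and *NF-YB1* overlapped between libraries, and *L1L* overlapped with neither. *NF-YB10* (13.5 ± 0.985) and *NF-YB3* (10.6 ± 0.804) followed without overlap, and *NF-YB2* (7.31 ± 3.15), which overlapped with both *NF-YB3* and *NF-YB8* (7.23 ± 0.86), was next. On this scale *L1L* was above 98.0% of the tested genes in WT and *LEC1* above 84.2%.

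In the mutant-labelled libraries the order differed at its top and at its end. *LEC1* was first at 75.2 ± 14.5 CPM per kb (SD, n = 3), above all other members in each library. *NF-YB1* (23.8 ± 3.4) and *L1L* (21.7 ± 7.39) came next and overlapped. *L1L* overlapped in turn with *NF-YB10* (12.9 ± 2.27), which overlapped with *NF-YB8* (10.8 ± 0.321). *NF-YB8* also overlapped with *NF-YB2* (9.47 ± 2.34), and *NF-YB3* was last of the tested members at 3.51 ± 0.943 CPM per kb. Here *L1L* was above 70.6% of the tested genes and *LEC1* above 92.5%.

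The make-up of the summed NF-YB mRNA did not overlap between the groups for *L1L* or for *LEC1*. *L1L* made up 13.2%, 8.76% and 20.1% of the summed CPM per kb of the 10 members in the mutant-labelled libraries, and 75.8%, 69.1% and 71.8% in WT. *LEC1* made up 52.1%, 49.2% and 41.0% against 11.2%, 10.9% and 9.54%. In each mutant-labelled library the largest share was thus that of *LEC1*, and in each WT library that of *L1L*. The shares divide the same sum, so a lower *L1L* level by itself raises the share of *LEC1*. The level of *LEC1* overlapped between the groups, at 59.1 to 87.1 CPM per kb in the mutant-labelled libraries and 32.1 to 61.2 in WT. The 10 members summed to 158 ± 12.0 CPM per kb (SD, n = 3) in the mutant-labelled libraries and 405 ± 123 in WT. *LEC1* and *L1L* together held 61.4% ± 3.68 of that sum against 82.8% ± 3.67. The 8 members outside the embryo branch summed to 60.7 ± 6.29 CPM per kb against 66.8 ± 4.36, a difference within the spread of the libraries.

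Within a library, the ratio of *L1L* to *LEC1* needs no scaling between libraries. It was 0.253, 0.178 and 0.490 in the mutant-labelled libraries and 6.77, 6.33 and 7.53 in WT, so *L1L* was the lower of the pair in 3 of 3 libraries of the first group and the higher in 3 of 3 of the second. On the log2 scale the ratio was -1.83 ± 0.741 against 2.78 ± 0.126 (SD, n = 3), a difference of -4.61 or 24.5-fold. The 2-sided exact permutation p was 0.10, the smallest that 3 against 3 libraries can give.

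**Figure D3:**
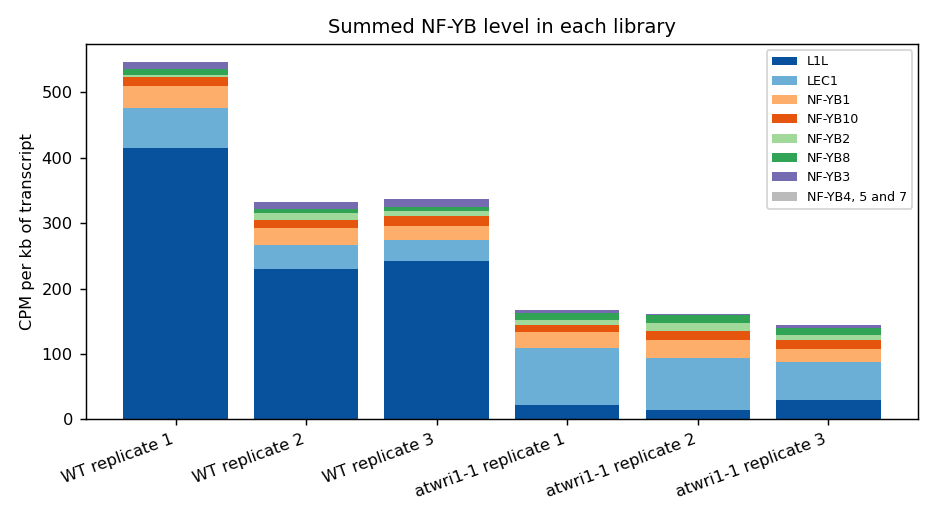
CPM per kb of transcript (vertical axis, from 0) of the NF-YB members, stacked for each of the 3 WT and 3 *atwri1-1* libraries. *L1L* (dark blue) held between 69.1% and 75.8% of the stack in WT and between 8.76% and 20.1% in the mutant-labelled libraries, whereas the members outside the embryo branch summed to similar heights.

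Reads near *L1L* were also examined because its ends overlap other genes and the counting did not use strand. *AT5G47660*, on the same strand, overlaps the start of *L1L* by 116 bases, and *TRM10* (AT5G47680), on the opposite strand, overlaps its end by 124 bases. Of the 31-base stretches of the *L1L* transcript, 83.0% occurred in no other primary transcript, and reads with more than 1 best place had been dropped. *AT5G47660* was at 45.1, 37.6 and 36.2 CPM against 27.6, 35.1 and 30.7 in WT, with a log2 fold change of 0.35 (adjusted p = 0.215). *TRM10* was at 69.1, 70.9 and 70.0 CPM against 49.0, 57.7 and 48.2, with a log2 fold change of 0.44 (adjusted p = 0.0707). For both neighbours the groups did not overlap, and both lay on the side opposite to that of *L1L*. *NUDT2* (AT5G47650, 19310192 to 19312595, minus strand) lies on the *NF-YB2* side of these genes and overlaps the end of *NF-YB2* (19309227 to 19310272, plus strand). It was called lower (log2 fold change -1.69, adjusted p = 0.0062), while *NF-YB2*, 4505 bases from *L1L*, was not. These neighbours were chosen after their values had been seen. The other members tested had between 95.0% and 100% of their 31-base stretches to themselves. *NF-YB8* and *NF-YB10* shared a few with each other, and *NF-YB2*, at 95.0%, shared some with *NUDT2*.

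Motifs were read in the 500 bases before and the 500 bases after the 5′ end of each transcript, on both strands. The AW Box (CNTNGNNNNNNNCG), the sequence known to be bound by WRI1, was in the upstream window of 3 of the 10 members: *L1L*, *LEC1* and *NF-YB3*. The upstream window of 18.4% of 24168 genes held it, and 40.6% of downstream windows did. *L1L* had a second match in its 5′ UTR, and *NF-YB1*, *NF-YB4*, *NF-YB7* and *NF-YB10* had 1 each downstream. The upstream window of *L1L* lies wholly within the span of *AT5G47660* (19312747 to 19314893, same strand). Its upstream match is thus inside another gene, and its 5′ UTR match lies in that span too. The 4 matches of the called members and *LEC1* are shown because these genes carry the results, with the match in capitals and 8 bases on either side, in the direction of the gene. In TAIR10.1 they lie at chr5:19314371-19314384 and chr5:19314842-19314855 (*L1L*, before the start and in the 5′ UTR), chr1:7729698-7729711 (*LEC1*) and chr4:8343924-8343937 (*NF-YB3*).
L1L upstream: agtgcaggCATTGATAAGTTCGagaagcga
L1L 5′ UTR: agaaggatCCTCGGTCACATCGattatggc
LEC1 upstream: gatatagaCCTCGTAAGAACCGcctccttt
NF-YB3 upstream: accctgatCCTTGAGGAAAGCGgaaacaac

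Among the 7 tested members, the upstream AW Box was in both that were called and in 1 of the 5 that were not. The downstream windows did not divide in this way. There the AW Box was in *L1L* but not in *NF-YB3*, and it was in *NF-YB1* and *NF-YB10*, which were not called. A bearing of these matches on the calls was not tested. *LEC1* also held a CNC Box (CNCCNCC) that began inside its AW Box, while *L1L* had none upstream. A CNC Box was in the upstream window of 20.8% of the 24168 genes. The CCAAT sequence, read by NF-Y itself, occurred 3 times upstream of *LEC1* and not at all upstream of *L1L*, where 69.7% of genes held it. That *L1L* window is the one within *AT5G47660*. The RY motif (CATGCA), bound by the B3-domain regulators, matched 4 times in the downstream window of *LEC1* and once in that of *L1L*, where 11.4% of genes held it. The *LEC1* matches at bases 10 to 15 and 12 to 17 overlap on opposite strands and are a single place. The matches describe the letters in these windows and do not show binding.

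The subunits that NF-YB proteins need as partners were counted next. Of the 10 NF-YA genes, the DNA-contacting subunits, 9 were tested and none was called in either direction by edgeR, DESeq2 or limma-voom (2 were higher at an unadjusted p under 0.05, *NF-YA5* and *NF-YA6*). The median log2 fold change was 0.25, with 8 of 9 above 0, against -0.01 and 9003 of 18241 over all genes tested. *NF-YA3* was the most abundant by CPM, at 173, 148 and 167 against 158, 162 and 144 in WT (log2 fold change 0.07). *NF-YA6* was at 178, 148 and 160 CPM against 72.0, 126 and 120 (log2 fold change 0.61, adjusted p = 0.140). *NF-YA5*, a drought-responsive gene targeted by miR169, was at 134, 131 and 137 CPM against 72.7, 87.7 and 83.3, and its log2 fold change of 0.72 (SE 0.125, adjusted p = 0.0126) passed the test but not the fold minimum.

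Of the 13 NF-YC genes, which encode the direct dimerisation partners, 9 were tested. Of these, 2 were called lower and none higher, against 5.31% and 1.08% of all genes tested. The same counts of NF-YC genes were given by DESeq2 and limma-voom. At an unadjusted p under 0.05, 4 were lower and 1 (*NF-YC12*, log2 fold change 1.04) higher. The median log2 fold change was -0.28, and 6 of the 9 had groups that did not overlap, against 35.0% of all genes tested. Of these 6, 4 were lower and 2 (*NF-YC11* and *NF-YC12*) higher in the mutant-labelled libraries. *NF-YC4* fell from 47.2, 27.4 and 31.2 CPM in WT to 11.2, 10.01 and 9.81 CPM (log2 fold change -1.77, SE 0.229, adjusted p = 0.0040). *NF-YC1* fell from 8.40, 10.5 and 11.6 CPM to 4.66, 4.54 and 5.19 CPM (log2 fold change -1.09, SE 0.212, adjusted p = 0.020). The call of *NF-YC1* was lost in 5 of the 6 fits that left out a library, with adjusted p values of up to 0.0996, and held without WT replicate 1. It was also lost with unscaled library sizes (log2 fold change -0.92).

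*NF-YC3* and *NF-YC9*, which with *NF-YC4* act in flowering and in abscisic acid responses, had log2 fold changes of -0.68 (adjusted p = 0.0109) and -0.62 (adjusted p = 0.0393), under the fold minimum. *NF-YC2*, a subunit shown to join L1L and bZIP67 on storage gene promoters, was the most abundant of the NF-YC genes by CPM, at 216, 190 and 210 against 245, 110 and 129 in WT. Its log2 fold change was 0.35 (adjusted p = 0.510) and WT replicate 1 stood apart from the other WT libraries. Without WT replicate 1 it was 0.77 with an adjusted p of 0.0021, under the fold minimum. *NF-YC11* was the next by mean CPM over all 6 libraries, although *NF-YC9* (66.2 CPM) and *NF-YC3* (63.7 CPM) exceeded it (57.7 CPM) in the WT means. Its log2 fold change was 0.22 (adjusted p = 0.300).

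*NF-YB11*, *NF-YB12* and *NF-YB13*, more distant histone-fold genes that carry NF-YB numbers, were tested and not called by edgeR, DESeq2 or limma-voom, and 0 of them had an unadjusted p under 0.05. Their log2 fold changes were -0.66, 0.04 and 0.15. *NF-YB11* was at 87.0, 75.4 and 83.0 CPM in the mutant-labelled libraries and at 256, 71.6 and 60.1 CPM in WT, and without WT replicate 1 its log2 fold change was 0.31.

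Of 11 regulators listed for the LEC1 maturation network, 1 was called lower and 1 higher, against 5.31% and 1.08% of all genes tested. The list was not limited to genes that act in the same direction as LEC1. The median log2 fold change was 0.11. At an unadjusted p under 0.05, 1 was lower and 3 were higher (*LEC2*, *ABI3* and *AGL15*). The groups did not overlap for 5 of the 11, *bZIP67* being lower and *LEC2*, *ABI3*, *AGL15* and *VAL1* higher in the mutant-labelled libraries, against 35.0% of all genes tested. *bZIP67*, the bZIP partner of LEC1-type NF-Y complexes, was at 0.823, 0.296 and 1.13 CPM in the mutant-labelled libraries, from 9, 6 and 10 reads. In WT it was at 83.4, 62.3 and 61.5 CPM. Its log2 fold change was -6.68 (SE 0.394, adjusted p = 2.3e-04), which is 103-fold lower and larger in size than that of *L1L*. *LEC2*, a B3-domain regulator of embryo development, rose from 8.95, 12.0 and 11.8 CPM to 24.6, 22.7 and 19.7 CPM (log2 fold change 1.03, SE 0.18, adjusted p = 0.0129). It was no longer called without *atwri1-1* replicate 1 (0.96, adjusted p = 0.0665), without *atwri1-1* replicate 2 (1.02, adjusted p = 0.0683) or without WT replicate 1 (0.90, under the fold minimum). The network genes with the highest CPM were *ABI3*, at 598, 558 and 618 against 440, 483 and 503 in WT (log2 fold change 0.31, adjusted p = 0.182), and the chromatin remodeller gene *PKL* (log2 fold change 0.08).

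Of the 3 genes known to be activated by LEC1-type NF-Y together with bZIP67, 1 was called lower, against 5.31% of all genes tested. *SUS2*, a sucrose synthase gene of maturing seeds, was at 4.76, 5.33 and 6.65 CPM against 149, 125 and 216 in WT (log2 fold change -4.88, SE 0.269, adjusted p = 1.9e-04). *CRC*, which encodes the storage protein cruciferin C, ranged from 0.823 to 135 CPM within the mutant-labelled group (11.9 in replicate 2) and was at 115, 120 and 299 CPM in WT. With that spread its log2 fold change of -1.87 (SE 1.30, adjusted p = 0.419) did not pass. It was -4.75 (adjusted p = 0.0765) without *atwri1-1* replicate 3, ranged from -4.75 to -1.27 over the libraries left out in turn, and was -3.99 (adjusted p = 0.112) with limma-voom. *FAD3*, the linoleate desaturase gene of the endoplasmic reticulum, was at 248, 255 and 330 CPM against 342, 400 and 434 (log2 fold change -0.50, adjusted p = 0.116). Its groups did not overlap, which was so for 35.0% of all genes tested.

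**Figure D4:**
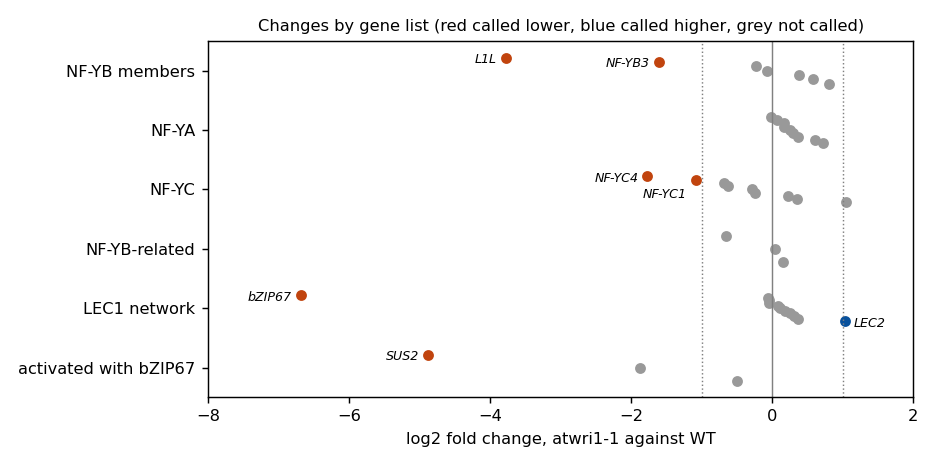
Log2 fold change (horizontal axis, *atwri1-1* against WT) of each tested gene, by list, with dotted lines at the fold minimum of 1 in either direction. Genes called lower are red, the 1 called higher is blue and the others are grey, and *bZIP67* (-6.68), *SUS2* (-4.88) and *L1L* (-3.77) lie furthest to the left.

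The genes whose profile over the 6 libraries was most like that of *L1L* were sought among 12287 genes with at least 10 CPM on average, by Pearson's r of log2 CPM. They were *APE2* (AT5G46110, the plastid triose phosphate translocator, r = 0.997), *cICDH* (AT1G65930, cytosolic isocitrate dehydrogenase, r = 0.996) and *AT2G22660* (r = 0.996). *APE2* was at 182, 163 and 185 CPM in the mutant-labelled libraries and at 540, 434 and 457 in WT, and so repeated the low value of *L1L* in replicate 2 and its high value in WT replicate 1. For *LEC1* they were *AT5G25470* (r = 0.993), *EMB2795* (AT2G32590, r = 0.990) and *Hsp81.4* (AT5G56000, r = 0.988), none of them called. *AT5G25470* was at 35.7, 32.0 and 26.7 CPM against 25.8, 16.7 and 16.6 in WT. These correlations describe 6 libraries in 2 groups that share depth and scaling, and carry no p.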

How the data were processed

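RNA of *Arabidopsis* embryos was sequenced in 3 *atwri1-1* and 3 WT libraries. The authors mapped reads to TAIR10 primary transcripts with Bowtie 0.12.7 and deposited raw counts per transcript, without strand. A row naming no transcript was left out (86.6% of the counts in *atwri1-1* replicate 1, 39.6% to 45.0% in the others). The deposited normalized table, made by the authors with edgeR 3.10.5, was not used here.

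Counts passing filterByExpr were TMM-scaled and tested by glmQLFit and glmQLFTest (edgeR 4.0.16, R 4.3.3) after tests on simulated data. Standard errors are the absolute log2 fold change over the square root of F. Members, lists and tests were chosen with earlier results of these data known. Named genes were the members, NF-YB11 to NF-YB13, *WRI1*, the called and 2 most abundant genes of each list, and the 3 genes most like *L1L* and *LEC1*. *NF-YA5*, *NF-YC3*, *NF-YC9*, *NF-YC12*, *AGL15*, *VAL1* and the neighbours were added after their values were seen.

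Same-numbered libraries deviated together (correlations 0.273, 0.280 and 0.236, against -0.233 to 0.0228 for other pairs), so the numbers were taken as pairs on the data alone. The main test was unpaired. The pairs were used only in the log2 ratios between same-numbered libraries and in the replicate block. WT replicate 3 carries 3 in its title and another number in its description. No source says whether replicates came from separate plants, so p-values measure the spread between these samples. Alternatives (DESeq2 1.42.0, limma-voom 3.58.1, scaling, filter, threshold, block, each library left out, coding length) are given at the end. Gene models and sequences came from the RefSeq annotation of TAIR10.1.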

Additional observations from a re-analysis of the deposited data

How the results depend on the processing

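*L1L* and *NF-YB3* were called lower under every other filter, scaling and test and with each library left out, with log2 fold changes of -3.83 to -3.59 and -4.03 to -3.48 for *L1L* and -1.72 to -1.44 and -1.75 to -1.39 for *NF-YB3*. When the adjusted p had to be 0.01 or less, only 1 member was called lower. No member was called higher except 1 (*LEC1*) without WT replicate 1 (range 0 to 1), where its log2 fold change was 1.14 (range 0.63 to 1.14). The log2 fold change of *NF-YB10* became 0.10 with unscaled library sizes, which moved the median of all genes tested to 0.17, and ranged from -0.19 to 0.059 with a library left out. That of *NF-YB11* ranged from -0.99 to 0.31, of *NF-YB12* from -0.044 to 0.15 and of *NF-YB13* from -0.019 to 0.27.

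The number of all genes called higher was 317 with DESeq2, 344 with unscaled library sizes, 72 under the stricter p of 0.01, 485 without a fold minimum and 74 to 364 with a library left out. The number called lower was 544 under that stricter p and 545 to 1087 with a library left out. In the partner and network lists, 0 genes were called higher under the stricter p, 2 without a fold minimum and 0 to 1 with a library left out. The causes were not tested. The replicate block (*LEC1*, adjusted p = 0.0385, log2 fold change 0.84) changed no call of the members, of *WRI1* or of the called and most abundant list genes. Its calls of the other named genes were not examined. The 3 members with few or no reads could not be compared at this depth.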
